A study of Mus musculus with 14 samples.

Results

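The 97 genes described here stood higher after 21 days of YAP5SA expression in neuroendocrine mouse small cell lung cancer cells, and were low or absent in the non-neuroendocrine cells of the same tumour model. They were taken from 10930 genes with a mean of at least 5 CPM (counts scaled to the library total) in neuroendocrine (NE) libraries, out of 32926 gene symbols in the table. For each gene, A was the log2 ratio of day 21 over day 0 of YAP5SA, and B the log2 ratio of NE over non-neuroendocrine (Non-NE), both on group means plus 0.5 CPM. B therefore runs with NE on top, and a high B means a low level in Non-NE. The 100 genes with the largest smaller value of A and B were taken, and Krt4, D630039A03Rik and Sytl5 were then left out by their symbols. A and B chose the genes, so the day 21, day 0, Non-NE and NE values below are a description with no test.

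RNA with poly(A) tails was sequenced in 14 libraries of cultured tumour cells, each holding 6730816 to 10659524 counts over genes. The lines came from mice that carry CGRPCreER/+ together with floxed alleles of Rb (Rbf/f), P53f/f and Ptenf/f, taken 2 months after TM. In these mice Cre is driven from the promoter of calcitonin gene-related peptide in neuroendocrine cells, and all lines were grown in HITES medium. The YAP5SA libraries (n = 2 each at days 0, 3, 7 and 21) carry Rosa26rtTA;Tet-onYAP5SA in addition, except that the text for day 0 replicate 1 lists no transgene. They are compared with the Non-NE libraries (n = 3) and the NE libraries (n = 3), which carry the 4 tumour alleles without the transgene. NE replicate 2 exceeded day 0 replicate 1 in 0 genes and held 85.7% of its counts, within the sampling noise of a random part of that library, so the NE values here are those of replicates 1 and 3. The labels name no transgene-free control for days 3, 7 or 21, and time in culture and YAP5SA therefore cannot be told apart. As a check of the labels, a list of 25 genes was summed, all of neuroendocrine identity except Rest, Hes1 and Notch2. The sum was 265.1 to 727 CPM in Non-NE and 5911 to 6644 CPM in NE libraries. At day 21 it was 1538 to 1577 CPM, against 7337 to 7613 CPM at day 0. The labels do not say whether replicates were separate cultures, so p-values measure only the spread between these libraries, which may be technical.

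Epithelial cells hold together through tight junctions, adherens junctions and desmosomes, and sort their membrane into apical and basolateral sides with the Par, Crumbs and Scribble polarity complexes. YAP is a transcriptional coactivator that binds DNA through TEAD factors, and the Hippo kinases, which respond to junctions and polarity, hold it in the cytoplasm. YAP5SA lacks the serines that these kinases modify and stays active. Small cell lung cancer contains NE cells, which grow in clusters and express epithelial adhesion genes, and Non-NE cells with mesenchymal features.

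Yap1 itself was measured at 8.58 and 7.7 CPM at day 0, 1291 and 1085 at day 3, 698 and 756 at day 7, and 207 and 218 at day 21, and at 121, 219.8 and 202 CPM in Non-NE libraries, against 20.8 and 12.6 CPM in NE libraries. It was thus above day 0 on every later day, was highest at day 3, and its Non-NE levels lay around those of day 21. The counts do not separate the transgene from the mouse gene.

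**Figure D1:**
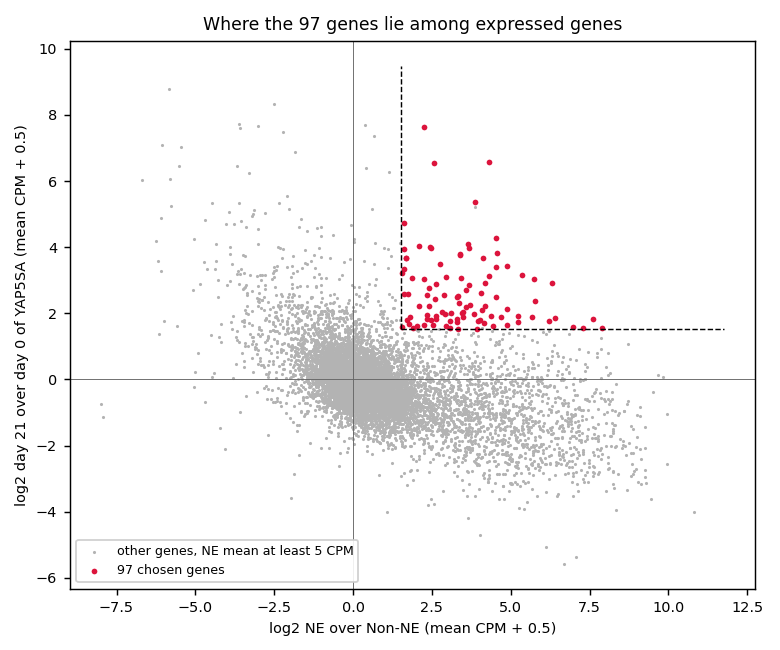
Each point is a gene with an NE mean of at least 5 CPM, placed by the log2 ratio of NE over Non-NE (horizontal axis) and of YAP5SA day 21 over day 0 (vertical axis), both from mean CPM plus 0.5. The 97 chosen genes, in red, fill the upper right corner beyond the dashed lines at the smallest value taken, where the cloud of other genes is thin.

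Few genes lay in that corner: the smaller of A and B reached 1 in 204 of the 10930 genes. Among the 97, A ran from 1.54 to 7.63 with a median of 2.23, and B from 1.54 to 7.89 with a median of 3.36. Just inside the limit were Tuft1, Dapk2 and Aim1l, each with a smaller value of 1.54. Just outside were Stim1 at 1.53 and Myc and Myh14 at 1.52. In Non-NE, 15 of the 97 had 0 counts in all 3 libraries, which allows up to 3 counts over the group or 0.112 CPM, and 50 averaged under 1 CPM. Every day 21 library lay above every day 0 library in 97 of 97, where the background over 13996 genes tested was 37.2%, and every Non-NE library lay below both NE libraries in 90 of 97, where it was 41.7% of 13458. The choice of genes favoured both counts, so neither is a result about the genes. Libraries overlapped between Non-NE and NE in Nid1, Plagl1, Tpd52l1, Rgs4, Rgs16, Phactr2 and Cdh8. In bulk RNA, fewer cells expressing a gene and less RNA per cell cannot be told apart.

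**Figure D2:**
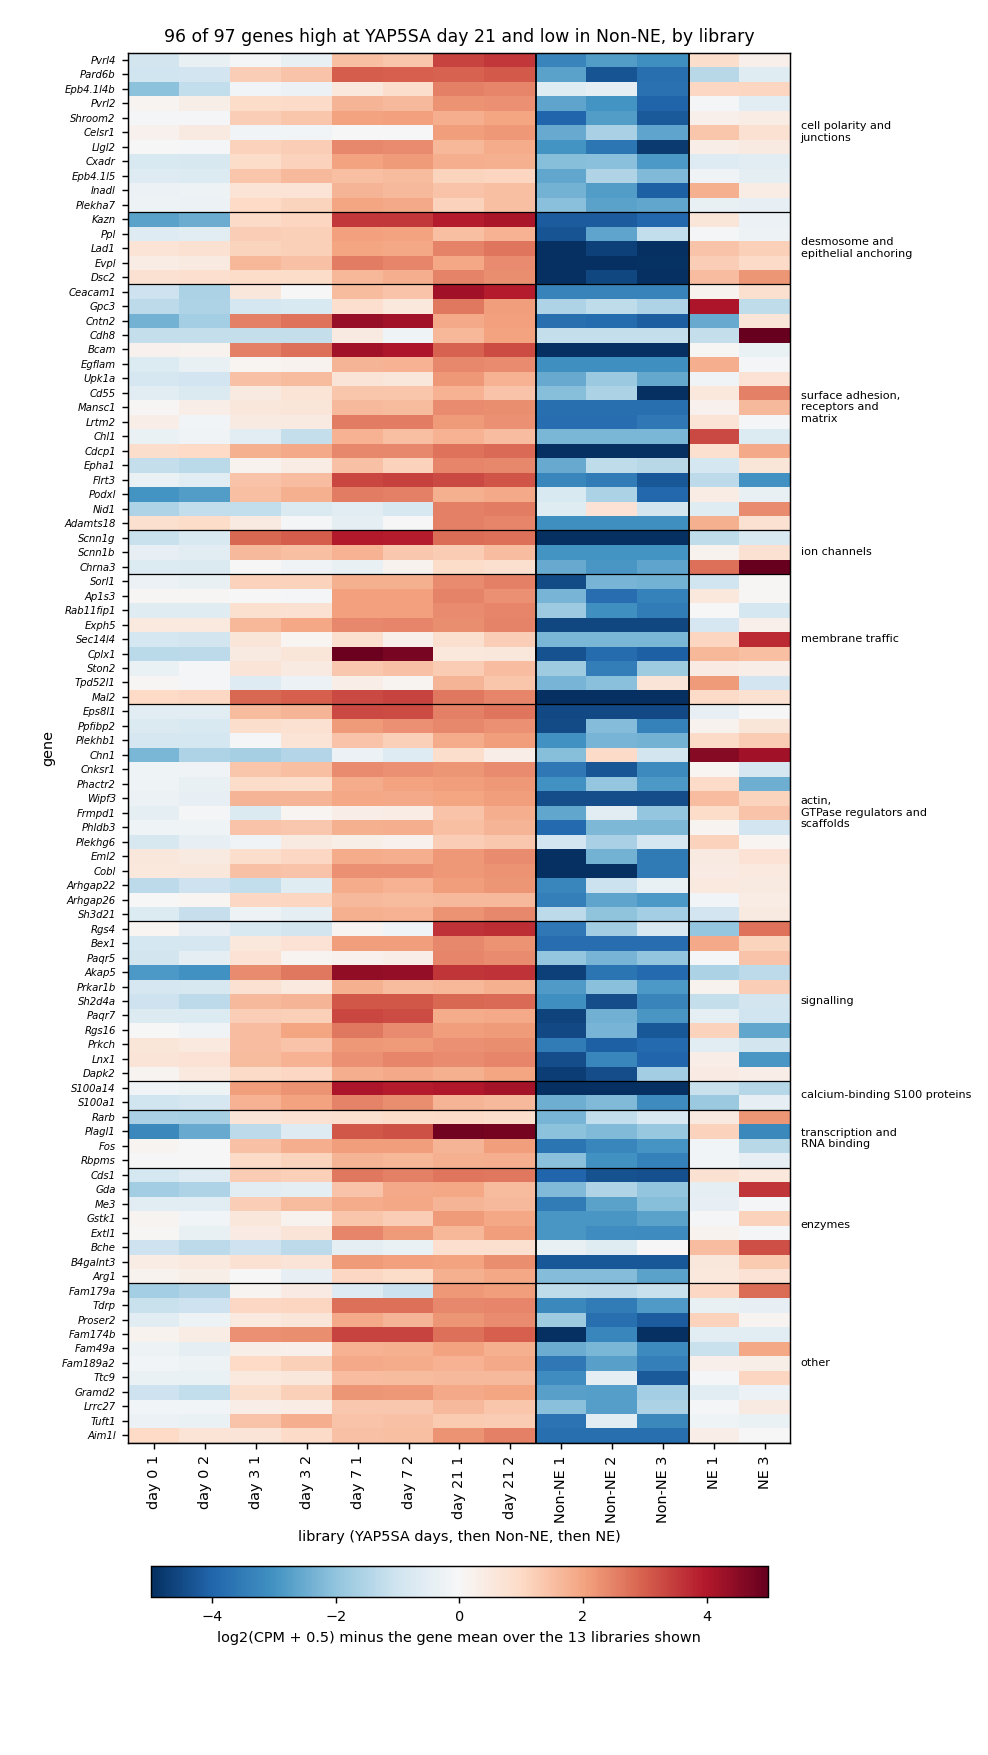
Colour gives log2(CPM + 0.5) of 96 of the 97 genes (rows, grouped by role) in each library (columns) relative to that gene's mean over the 13 libraries, with the scale ending at 5 either way. Blue Non-NE columns next to red day 7 and day 21 columns run through the rows, while the NE columns differ from each other in genes such as Gpc3, Cdh8 and Plagl1.

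Polarity and junction genes made up 12 of the 97. Pard6b, a core subunit of the Par polarity complex on chromosome 2 from 168081004 to 168101203 of mm10, had 35.7 and 36.2 CPM at day 0, 167 and 194 at day 3, 576 and 571 at day 7, and 552 and 595 at day 21. It had 10.7, 3.14 and 4.74 CPM in Non-NE libraries, against 26.7 and 47.1 CPM in NE libraries. Its day 21 mean was 16-fold that of day 0, and its NE mean 5.96-fold that of Non-NE. Llgl2, a basolateral polarity protein of the Scribble group, had 70.3 and 63.5 CPM at day 0, 152 and 164 at day 3, 364 and 356 at day 7, and 220.1 and 251 at day 21. In the tumour lines it had 8.32, 5.23 and 1.99 CPM in Non-NE libraries, against 87.9 and 94 CPM in NE libraries. Both were thus near their NE level at day 0, peaked or levelled off at day 7 and were lowest in Non-NE. Inadl, the PATJ scaffold of the Crumbs complex, had 38.4 and 39.6 CPM at day 0, 76.6 in both libraries at day 3, 152 and 146 at day 7, and 126 and 133 at day 21. It stood at 8.77, 6.27 and 2.28 CPM in Non-NE libraries, against 163 and 61.1 CPM in NE libraries, so that NE replicate 1 lay above the day 21 libraries and replicate 3 below them.

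Cxadr, a junctional adhesion receptor that viruses use for entry, kept a measurable level in Non-NE, with 53.5, 54.5 and 31.6 CPM in Non-NE libraries, against 149.8 and 163 CPM in NE libraries. It had 136 and 133 CPM at day 0, 442 and 520.1 at day 3, 948 and 1011 at day 7, and 827 and 794 at day 21. The day 21 mean was 6.03-fold that of day 0. Pvrl4, a nectin of adherens junctions, followed a later course, with 2.15 and 3.3 CPM at day 0, 4.17 and 3.38 at day 3, 13.4 and 12.4 at day 7, and 50.6 and 57.6 at day 21. It had 0, 0.209 and 0.0949 CPM in Non-NE libraries, against 8.56 and 5.45 CPM in NE libraries. The day 3 libraries overlapped neither day 7 nor day 21, but day 3 lay close to day 0. Celsr1, a cadherin of planar polarity, was the exception in this group, with a day 7 mean below that of day 0.

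Among the 5 genes of desmosomes and epithelial anchoring, Kazn led the whole set by the smaller of A and B. Kazn encodes kazrin, a protein that binds the plakin periplakin at the cell border, and lies on chromosome 4 from 142102390 to 142239401. It had 0.919 and 1.1 CPM at day 0, 17 and 18.4 at day 3, 104 and 105 at day 7, and 135 and 152 at day 21. It had 0, 0 and 0.0949 CPM in Non-NE libraries, against 13.3 and 6.95 CPM in NE libraries, a single count over the Non-NE libraries. The day 21 libraries were therefore also far above both NE libraries. Ppl, which encodes periplakin itself, had 48.6 and 50.6 CPM at day 0, 179 and 174 at day 3, 313 and 304 at day 7, and 216 and 253 at day 21. It stood at 3.27, 11.7 and 31.5 CPM in Non-NE libraries, against 71.2 and 64 CPM in NE libraries, with a wide spread in Non-NE. Evpl, which encodes the related envoplakin, had 49.2 and 52.1 CPM at day 0, 123 and 108 at day 3, 229.6 and 211 at day 7, and 146 and 199.6 at day 21. It had 0.594, 0.523 and 0.759 CPM in Non-NE libraries, against 89.7 and 74.4 CPM in NE libraries, a 131-fold gap in means. Dsc2, a desmosomal cadherin, had 36.5 and 38 CPM at day 0, 40.5 and 40.6 at day 3, 68.5 and 75.1 at day 7, and 119 and 107 at day 21, and hardly differed between days 0 and 3. It had 0, 0.418 and 0 CPM in Non-NE libraries, against 62.3 and 98.3 CPM in NE libraries, 4 counts over the Non-NE libraries.

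**Figure D3:**
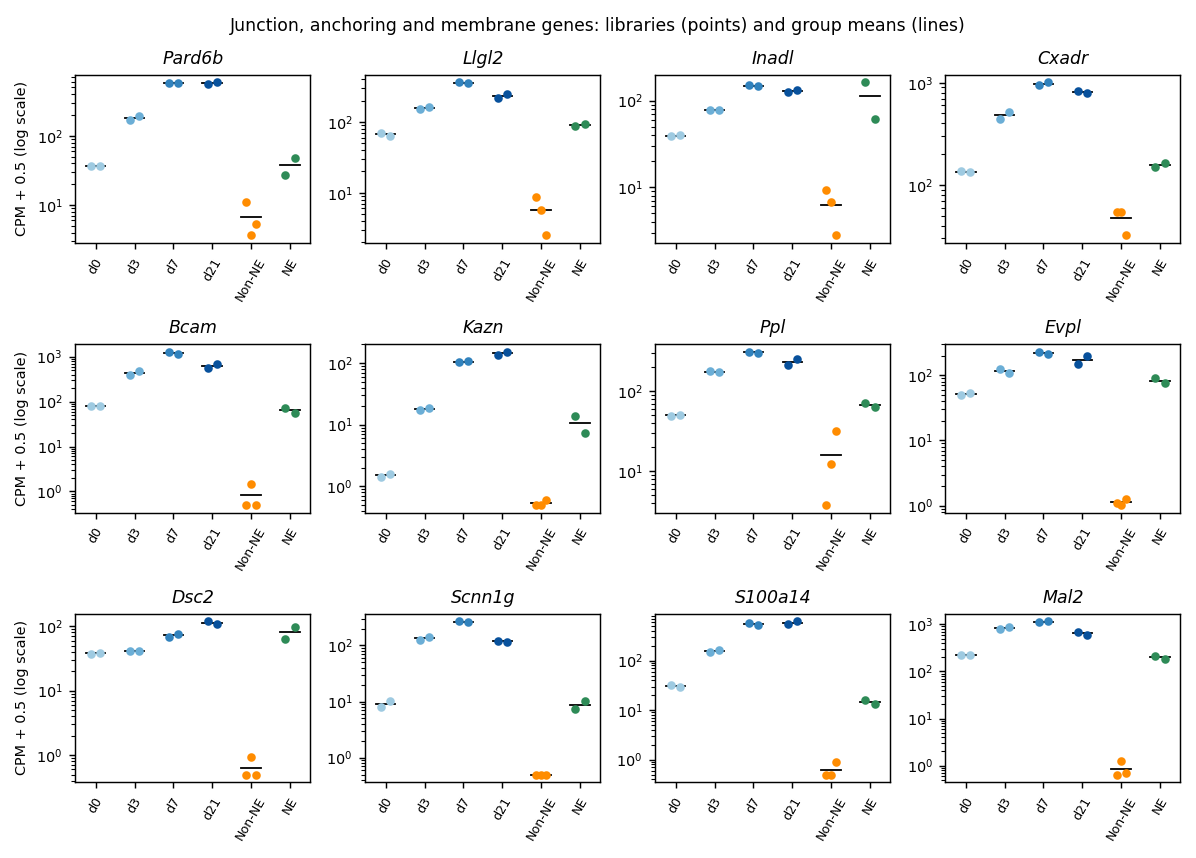
Points are libraries and lines group means of CPM plus 0.5 on a log axis, for 12 polarity, anchoring, channel and membrane genes at days 0 to 21 of YAP5SA (d0 to d21), in Non-NE and in NE. In each panel the Non-NE points are lowest and the day 0 points lie nearer to NE than the day 21 points do, except for Inadl and Dsc2, where NE is closer to day 21.

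Channel and S100 genes differed among themselves. Scnn1g, the gamma subunit of the epithelial sodium channel, had 7.56 and 9.8 CPM at day 0, 125 and 139.7 at day 3, 269 and 261 at day 7, and 119 and 116 at day 21. It had 0 CPM in all 3 Non-NE libraries, against 6.79 and 9.74 CPM in NE libraries, at least 73.2-fold lower in Non-NE at the floor of 3 counts. Its neighbour Scnn1b, the beta subunit, had 2.45 and 2.2 CPM at day 0, 11.6 and 10.9 at day 3, 12.8 and 9.69 at day 7, and 9.03 and 10.9 at day 21. It had 0 CPM in all 3 Non-NE libraries, against 3.97 and 6.14 CPM in NE libraries. Scnn1b was thus at day 3 near its levels of days 7 and 21, and Scnn1g peaked at day 7. Chrna3, a nicotinic acetylcholine receptor subunit and the other channel gene, had a low and late course, with 1.84 and 1.8 CPM at day 0, 3.15 and 2.81 at day 3, 2.42 and 3.78 at day 7, and 6.65 and 6.08 at day 21. S100a14, a calcium-binding protein of epithelia, had 31.2 and 28.2 CPM at day 0, 147 and 162 at day 3, 569.6 and 527 at day 7, and 554 and 625 at day 21. It had 0, 0 and 0.38 CPM in Non-NE libraries, against 15.7 and 12.5 CPM in NE libraries, so that day 0 already exceeded NE by 2.11-fold in means. S100a1, of the same family, had 52.6 and 57.8 CPM at day 0, 349.8 and 419.8 at day 3, 579 and 528 at day 7, and 344 and 317 at day 21, highest at day 7. It had 18.6, 22.3 and 11.3 CPM in Non-NE libraries, against 28.5 and 78.9 CPM in NE libraries, the smaller gap of the pair.

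Surface adhesion, receptor and matrix genes were the largest group, with 17. Ceacam1, a homophilic adhesion receptor, had 1.94 and 1.2 CPM at day 0, 6.92 and 4.5 at day 3, 14.5 and 13.3 at day 7, and 93.4 and 76.8 at day 21, a late course. It had 0 CPM in all 3 Non-NE libraries, against 5.22 and 8.34 CPM in NE libraries. Bcam, a laminin receptor, had 80.7 and 79.6 CPM at day 0, 399 and 473 at day 3, 1286 and 1165 at day 7, and 548 and 672 at day 21. It had 0, 0.941 and 0 CPM in Non-NE libraries, against 72.6 and 55.2 CPM in NE libraries. It peaked at day 7, and the day 21 libraries were lower but above day 3. Flrt3, a transmembrane adhesion protein, had 38.3 and 33.2 CPM at day 0, 131 and 139.8 at day 3, 499 and 519 at day 7, and 485 and 436 at day 21. It had 4.61, 3.76 and 2.09 CPM in Non-NE libraries, against 19 and 5.45 CPM in NE libraries, where the lower NE library came near the upper Non-NE library. Cdcp1, a transmembrane substrate of Src kinases, had 87.5 and 94.6 CPM at day 0, 163 and 178 at day 3, 254 and 252 at day 7, and 314 and 334 at day 21. It had 0.149, 0.314 and 0 CPM in Non-NE libraries, against 81.4 and 174 CPM in NE libraries. Cntn2, an adhesion molecule of axons, had 1.23 and 2.2 CPM at day 0, 49.4 and 56.9 at day 3, 177 and 162 at day 7, and 32.5 and 35.9 at day 21, so that its day 21 libraries lay below those of day 3. In NE, 92.4% of its summed CPM came from replicate 3.

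Of the 9 membrane traffic genes, Mal2, a proteolipid of apical transcytosis, had the highest B of all 97. Mal2 had 220.0 and 226 CPM at day 0, 812 and 884 at day 3, 1096 and 1161 at day 7, and 697 and 603 at day 21. It had 0.149, 0.732 and 0.19 CPM in Non-NE libraries, against 217 and 188 CPM in NE libraries, 10 counts over the Non-NE libraries. Cplx1, which encodes the synaptic vesicle release protein complexin, had 3.47 and 3.6 CPM at day 0, 13.2 and 14.8 at day 3, 307 and 273 at day 7, and 14.3 and 14.4 at day 21. Its day 7 level was transient, and both NE libraries, at 31.4 and 28.4 CPM, lay above day 21. Among the 15 actin, GTPase regulator and scaffold genes Cobl, an actin nucleator, had 102 and 105 CPM at day 0, 192 and 188 at day 3, 343 and 347 at day 7, and 319.6 and 336 at day 21. It had 1.49, 1.36 and 5.5 CPM in Non-NE libraries, against 93.2 and 98.2 CPM in NE libraries.

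Signalling genes numbered 11. Akap5, an anchor for protein kinase A that is also listed among alveolar type I markers, had 4.39 and 3.8 CPM at day 0, 181 and 220.1 at day 3, 777 and 753 at day 7, and 421 and 429 at day 21. It had 0.891, 2.3 and 1.9 CPM in Non-NE libraries, against 11.4 and 13.9 CPM in NE libraries. The day 21 mean was 104-fold that of day 0 and well above both NE libraries. Bex1, an adaptor of neurotrophin receptors, had 3.27 and 3.4 CPM at day 0, 9.36 and 10.9 at day 3, 29.2 and 29.3 at day 7, and 35.7 and 32.2 at day 21, and 0 CPM in all 3 Non-NE libraries, against 25.4 and 14.6 CPM in NE libraries. Rgs4, a regulator of G protein signalling, was lower at day 3 than day 0, near day 0 again at day 7 and far higher at day 21. Its levels were 5.82 and 4.0 CPM at day 0 and 2.95 and 2.63 at day 3. They were 6.09 and 4.75 at day 7 and 72.4 and 76.8 at day 21. Rgs4 had 0, 1.25 and 3.04 CPM in Non-NE libraries, against 1.04 and 38.2 CPM in NE libraries. The 4 genes of transcription and RNA binding included Plagl1, an imprinted zinc finger gene with the highest A of all. Plagl1 had 0.102 and 0.50 CPM at day 0, 1.83 and 3.1 at day 3, 47.9 and 51.6 at day 7, and 160.1 and 156 at day 21. It had 0.891, 0.732 and 1.04 CPM in Non-NE libraries, against 12.2 and 0.116 CPM in NE libraries, so its NE mean came from 1 library. Enzymes (8 genes) included Cds1, which makes the phospholipid precursor CDP-diacylglycerol. Cds1 had 6.33 and 7.5 CPM at day 0, 29.7 and 27.8 at day 3, 78 and 72.2 at day 7, and 79.1 and 78.2 at day 21, against 20.6 and 17.7 CPM in NE libraries, and its 3 Non-NE libraries were all below 1 CPM. Of the 11 genes with no assigned role, Fam174b, a membrane protein gene, had 72.7 and 83.1 CPM at day 0, 312 and 326 at day 3, 678 and 676 at day 7, and 435 and 516 at day 21, and 0, 6.27 and 0.285 CPM in Non-NE libraries, against 44.7 and 44.4 CPM in NE libraries. Aim1l, the last gene taken, had 13.3 and 10.4 CPM at day 0, 10.2 and 12.9 at day 3, 18.6 and 19 at day 7, and 31.7 and 38.8 at day 21, and 0 CPM in all 3 Non-NE libraries, against 8.15 and 6.26 CPM in NE libraries. Its levels separated day 21 from the earlier days.

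Of the 97, 2 were highest at day 3 (Scnn1b and Tuft1), 35 at day 7 and 60 at day 21. The choice on A let no gene be highest at day 0 and favoured day 21, and this split has no background over all genes. Measured on the log2 scale, the median gene had covered 50.3% of its day 21 difference from day 0 by day 3 and 96.0% by day 7. These shares rest on the day 0 and day 21 values that chose the genes. A smaller group of 14 had covered less than 50% by day 7: Fam179a, Rgs4, Cdh8, Paqr5, Bche, Frmpd1, Celsr1, Plekhg6, Nid1, Arg1, Adamts18, Chrna3, Tpd52l1 and Aim1l. Celsr1 and Adamts18 were below their day 0 means at day 7. At day 3, 9 genes lay below their day 0 means. Every day 3 library lay above every day 0 library in 84 of 97, where the background was 34%, and every day 7 library above every day 0 library in 94, where it was 36%. In the same terms edgeR called 77 of 97 higher at day 3 than day 0 and 2 lower, against 26.2% and 22.4% of all genes tested. These counts share the day 0 libraries with the choice of genes.

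Days 3 and 7 took no part in the choice. Between them, edgeR's quasi-likelihood test with Benjamini-Hochberg adjustment over 13996 genes called 84 of the 97 higher at day 7, 2 lower and 11 neither way, at an adjusted p under 0.05. Of all genes tested, 29.5% were higher and 26.1% lower. The median log2 difference of day 7 over day 3 was 1.14 for the 97 and 0.02 for all genes. Every day 7 library lay above every day 3 library in 86 of 97, against 31.2% of all genes. Other genes that stood higher at day 21 than day 0 showed it too. Of 452 other genes with an NE mean of at least 5 CPM and an A no lower than the smallest among the 97, 91.2% were called higher at day 7 than day 3 and 1.33% lower, with a median of 1.09. These 452 had a median B of -1.34, and 19.2% had a B above 0.

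The day 7 calls ran through the roles. Polarity and junction genes were called higher in 10 of 12, desmosome and anchoring genes in 5 of 5, and surface adhesion genes in 14 of 17 with 1 lower. Traffic genes were called higher in 8 of 9, actin and scaffold genes in 14 of 15, signalling genes in 10 of 11 and enzymes in 8 of 8. Both S100 genes, 3 of 4 transcription and RNA binding genes and 9 of 11 other genes, with 1 lower, followed, whereas 1 of 3 channel genes was called. Kazn rose (edgeR log2 difference 2.71, SE 0.10, adjusted p = 1.93e-17), as did Pard6b (edgeR log2 difference 1.81, SE 0.08, adjusted p = 1.43e-15) and Llgl2 (edgeR log2 difference 1.33, SE 0.08, adjusted p = 3.12e-13). Among the junction genes Cxadr (edgeR log2 difference 1.17, SE 0.08, adjusted p = 1.16e-11) rose too, and Epb4.1l5, a FERM domain protein of the Crumbs complex, did not pass (edgeR log2 difference 0.16, SE 0.08, adjusted p = 0.0958). S100a14 rose as well (edgeR log2 difference 1.97, SE 0.08, adjusted p = 4.68e-16), and Scnn1g passed (edgeR log2 difference 1.14, SE 0.08, adjusted p = 7.04e-12) where Scnn1b did not (edgeR log2 difference 0.14, SE 0.17, adjusted p = 0.486). That contrast between the channel subunits was not itself tested.

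Steep rises between days 3 and 7 were those of Cplx1, Plagl1, Chl1 and Arhgap22. Cplx1 (edgeR log2 difference 4.51, SE 0.10, adjusted p = 1.39e-21) and Plagl1 (edgeR log2 difference 4.46, SE 0.17, adjusted p = 3.46e-17) were measured above 0 at both days. Arhgap22, a GTPase activating protein, rose at low counts (edgeR log2 difference 3.06, SE 0.21, adjusted p = 6.75e-12), as did Chl1, a neural adhesion molecule (edgeR log2 difference 3.12, SE 0.30, adjusted p = 3.32e-09). Cdh8, a neural cadherin, had 0 counts at days 0 and 3 and 1.06 and 0.484 CPM at day 7, so its fitted difference, although the highest, is no estimate of size and gives it no rank. Fam179a (edgeR log2 difference -1.41, SE 0.39, adjusted p = 0.00325) and Upk1a, a uroplakin of urothelium (edgeR log2 difference -0.79, SE 0.16, adjusted p = 0.000219), fell between these days. Upk1a had 9.37 and 8.81 CPM at day 7, against 16.7 and 18.1 CPM at day 3, and was again higher at day 21, at 27.9 and 20.6 CPM.

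**Figure D4:**
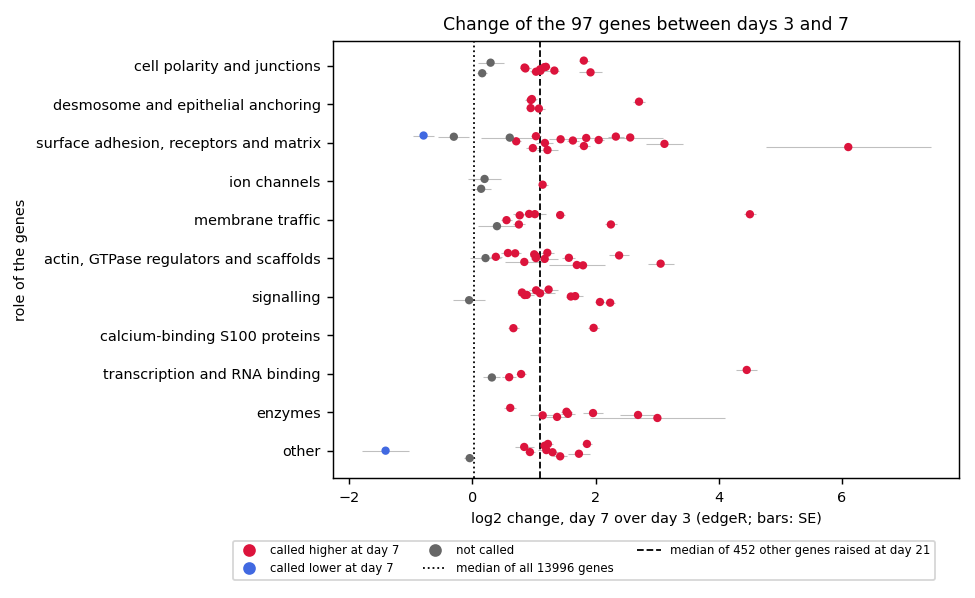
Each point is one of the 97 genes, placed by its log2 difference of day 7 over day 3 (edgeR, bars give the SE) and its role. Most points lie right of the dotted median of all 13996 genes at 0.02 and around the dashed median of 1.09 for 452 other genes raised at day 21, with Fam179a and Upk1a to the left.

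A fit of all 14 libraries, in which the wider spread among NE and Non-NE libraries enters, called only 21 of the 97 higher at day 7 and 0 lower, and 29 higher at day 3 than day 0. The 8 YAP5SA libraries alone had a biological coefficient of variation of 0.0548, against 0.427 among the 5 NE and Non-NE libraries.

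Day 0 cells and the NE libraries did not hold these genes at the same level. In means, 52 of 97 were within 2-fold, NE was at least 2-fold above day 0 in 41 and day 0 at least 2-fold above NE in 4. The median ratio of day 0 over NE was 0.624, against 0.974 over the 10930 genes. A low day 0 and a high NE level both favour a gene in the choice, so this direction is partly set by it. Day 0 lay above Non-NE in most of the 97, which is no result about them, since a low Non-NE level was part of the choice. In some of the 97 Non-NE had the higher mean. Podxl averaged 9.54 CPM at day 0 and 24.3 CPM in Non-NE, and Epb4.1l4b 3.42 and 5.20 CPM. Chn1, a Rac GTPase activating protein, had 5.89 and 3.86 CPM at day 21 and 0.204 and 0.70 at day 0, against 81.7 and 63.2 CPM in NE libraries. Chrna3 had 6.65 and 6.08 CPM at day 21 and 1.84 and 1.8 at day 0, against 24.5 and 156. In these 2 genes, and in Bche and Cplx1, both NE libraries lay above day 21. Most of the 97 had the other order. The median ratio of day 21 over NE was 3.21, against 0.846 over the 10930 genes. A high day 21 level favours a gene in the choice, so this direction too is partly set by it.

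In 13 genes at least 90% of the summed NE signal came from 1 library, 13.4% of the 97 against 1.43% of the 10930. They were Gpc3, Phactr2, Plagl1, Rgs16, Chl1, Lnx1 and Tpd52l1 in replicate 1, and Cntn2, Gda, Rgs4, Cdh8, Fam49a and Nid1 in replicate 3. Gpc3, a cell surface proteoglycan, had 0, 0.105 and 0 CPM in Non-NE libraries, against 23.9 and 0.116 CPM in NE libraries and 8.75 and 5.69 CPM at day 21. Gda, guanine deaminase, had 0, 0.314 and 0.0949 CPM in Non-NE libraries, against 1.15 and 27.4 CPM in NE libraries and 8.46 and 6.46 CPM at day 21. In 6 of these 13 the other NE library was also above every Non-NE library, by small margins in CPM, and in 7 it was not. Without NE replicate 1 the same choice returned 84 of the 97, and without replicate 3 it returned 82.

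**Figure D5:**
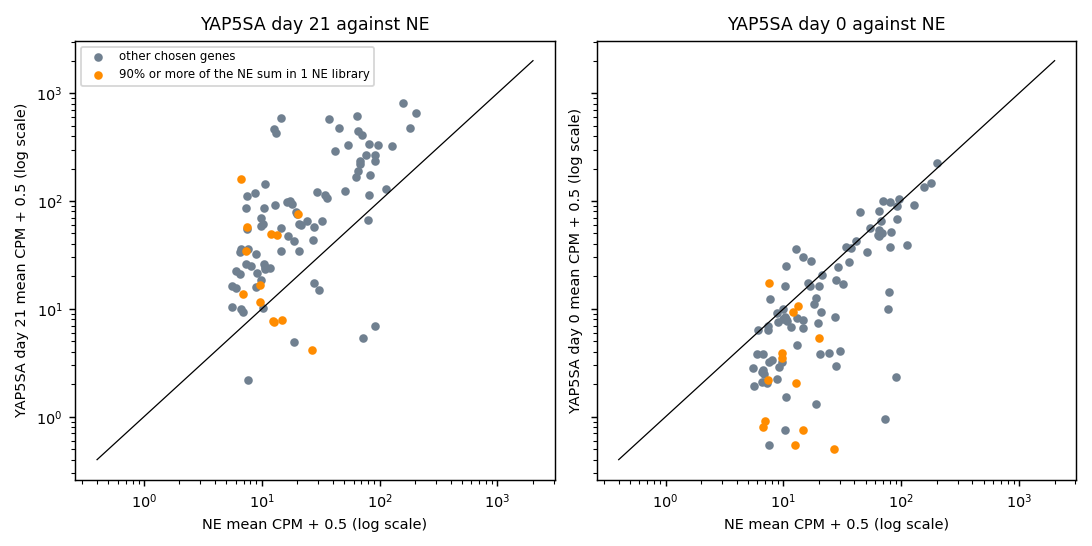
Mean CPM plus 0.5 of the 97 genes at day 21 (left) and day 0 (right) of YAP5SA against the NE mean, on log axes with the line of equality. Day 21 lies above the line for most of the 97, a side that the choice of genes favours. Day 0 scatters around and below the line, and the orange genes draw 90% or more of their NE signal from 1 NE library.

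Genes of the same pathways that are not among the 97 were read from lists. Over all genes tested in both fits, 378 of 12783 (2.96%) were called higher at day 21 than day 0 and lower in Non-NE than NE. The count fell to 197 without NE replicate 1 and to 151 without NE replicate 3. Of the apical junction and polarity list, 16 of 26 were called in both, and so were 11 of the 21 outside the 97. Cgn, which encodes the tight junction protein cingulin, had 356 and 458 CPM at day 21 and 187 and 185 at day 0 (edgeR log2 difference 1.27, SE 0.09, adjusted p = 5.28e-12). It was lower in Non-NE, with 2.23, 4.39 and 0.569 CPM in Non-NE libraries, against 176 and 156 CPM in NE libraries (edgeR log2 difference -5.82, SE 0.75, adjusted p = 0.0039). Cdh1, the epithelial cadherin of adherens junctions, had 1247 CPM in both libraries at day 21 and 945 and 973 at day 0 (edgeR log2 difference 0.52, SE 0.08, adjusted p = 1.04e-06). It had 0.743, 7.11 and 5.03 CPM in Non-NE libraries, against 1016 and 1482 CPM in NE libraries (edgeR log2 difference -7.86, SE 0.86, adjusted p = 0.00228). Ocln, Marveld2, Marveld3, Crb3, Lsr, Ildr1, Rab25, Myo5b and Cldn3 were the others. Epcam, outside this list, was lower at day 21 than day 0 (edgeR log2 difference -0.90, SE 0.07, adjusted p = 3.42e-11), and Tjp1 (ZO-1) was higher at day 21 (edgeR log2 difference 2.21, SE 0.08, adjusted p = 1.23e-18) without passing between Non-NE and NE (edgeR log2 difference 0.21, SE 0.35, adjusted p = 0.683).

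The epithelial surface protease and mucin list had 10 of 18 called in both, and 7 of the 15 outside the 97. They include Prss8 and St14, membrane serine proteases that act on the epithelial sodium channel and its surroundings, and Scnn1a, its alpha subunit. Scnn1a had 468 and 551 CPM at day 21 and 214 and 229 at day 0 (edgeR log2 difference 1.35, SE 0.09, adjusted p = 3.45e-13). It had 3.42, 3.35 and 5.31 CPM in Non-NE libraries, against 208 and 256 CPM in NE libraries (edgeR log2 difference -5.56, SE 0.30, adjusted p = 0.000288). Alveolar type I markers, genes of the flat gas-exchange cells, gave 3 of the 12 outside the 97, namely Vegfa, Spock2 and Limch1, while Akap5 and Scnn1g are among the 97. The type I list was split between Non-NE and NE. Of its 14 genes tested, 4 were called higher in Non-NE, 5 lower and 5 neither way. At day 21 against day 0, 19 of 19 type I markers tested were called higher, where 37.7% of all genes tested were. Desmosome and basal adhesion genes gave 2 of the 15 outside the 97, namely Dsg2 and Pkp3, while Dsc2 and Evpl are among the 97. Epithelial transcription and splicing factors gave 2 of 19, Grhl1 and Cebpa, and alveolar type II and club cell markers 2 of 9, Sftpc and Napsa. Of the 9 type II and club markers, 1 was called higher in Non-NE than NE, 3 lower and 5 neither way. At day 21 against day 0, 13 of 15 tested were called higher and 2 lower, where 37.7% and 34% of all genes tested were. YAP and TEAD targets (22 tested), lysosome and endosome genes (24), MHC class I and interferon genes (21) and neuroendocrine identity genes (21) gave 0. YAP and TEAD targets were instead called higher in 21 of 22 at day 21 and higher in Non-NE in 18 of 24, where 37.7% and 16.1% of all genes tested were. The neuroendocrine list also holds Rest, Hes1 and Notch2. It had 18 of 22 called lower and 4 higher at day 21, where 34% and 37.7% of all genes were. In Non-NE it had 17 of 22 called lower and 3 higher, where 18.2% and 16.1% of all genes were. Genes near 0 in one group could be tested only if another group was high, which set part of the direction in advance.

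Fibroblast markers were higher in Non-NE than in NE libraries. The 15 fibroblast markers summed to 9168 to 20620 CPM in Non-NE libraries and to 3.76 to 8.92 CPM in NE libraries, with Thy1 and Tcf21 at 0 in Non-NE, and to 57.6 to 62.5 CPM at day 21. Most of the Non-NE sum came from Col1a1, Col1a2 and Col3a1, with Non-NE means of 8861, 3343 and 2796 CPM. Zeb1, a repressor of epithelial genes, had 163, 224 and 216 CPM in Non-NE libraries, against 0.104 and 0.232 CPM in NE libraries, and at most 0.482 CPM on any YAP5SA day. Snai1, a repressor of the same kind, had 38.2, 40.4 and 66.7 CPM in Non-NE libraries, against 0.627 and 0.348 CPM in NE libraries, and 1.71 and 2.03 CPM at day 21. Zeb2 and Snai2 had the same order, and all 4 were named after their values were seen. Leukocyte markers summed to 5.50 to 9.87 CPM in Non-NE libraries and 8.0 to 13.4 CPM in NE libraries, and to 112.7 to 135.3 CPM at day 21 against 6.40 to 7.76 CPM at day 0, mostly from Csf1r, with Ptprc and Tyrobp at 0 on every day. Endothelial markers summed to 0.941 to 3.23 CPM in Non-NE and 233 to 422 CPM in NE libraries, nearly all from Vwf, with Cdh5 and Cldn5 at 0 in both. They (1 tested), the ciliated and goblet markers (4 tested) and the basal cell markers (1 tested) likewise held 0 genes called in both. The part of other cells in the low Non-NE values was not tested.

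Several of the 97 are neighbours. Pvrl2 and Bcam lie 6.57 kb apart on chromosome 7, S100a1 and S100a14 12.5 kb apart on chromosome 3, and Scnn1g and Scnn1b 96.6 kb apart on chromosome 7. Within 200 kb of each other also lie Plagl1 and Phactr2, Gstk1 and Epha1, and the chain Aim1l, Cnksr1, Extl1 and Paqr7 on chromosome 4. Adjacent genes are not independent observations.

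Promoter windows of 300 bases, 250 before to 50 after an annotated start, were available from RefSeq (GRCm38.p6) for 73 of the 97, and 3 short motifs were searched on both strands. The E-box CAGGTG, which ZEB and SNAI repressors bind, occurred in 28 of 73 genes (38.4%), against 21.4% of 8739 genes with a window and an NE mean of at least 5 CPM. Genes with several windows have more chances of a match, and per window the shares were 29.7% of 101 and 18.4% of 11287. The TEAD motif GGAATG occurred in 11 of 73 (15.1%), against 13.4%, and the Grainyhead motif AACNGGTT in 0, against 2.09%. No motif contains another. The windows of the 97 had a median GC content of 62% like the others, with a median of 17 CpG against 22. The upstream 250 bases of 4 of the genes, shown because each holds the E-box, run as follows, with E-box matches of either strand in capitals, on the coding strand.
Pard6b, chr2:168080754-168081003 (+): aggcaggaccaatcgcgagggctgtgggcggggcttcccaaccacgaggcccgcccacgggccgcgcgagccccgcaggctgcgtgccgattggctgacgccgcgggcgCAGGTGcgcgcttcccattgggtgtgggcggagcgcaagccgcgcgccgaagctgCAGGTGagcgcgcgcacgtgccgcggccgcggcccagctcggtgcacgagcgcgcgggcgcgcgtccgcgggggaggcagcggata
Cobl, chr11:12464961-12465210 (-): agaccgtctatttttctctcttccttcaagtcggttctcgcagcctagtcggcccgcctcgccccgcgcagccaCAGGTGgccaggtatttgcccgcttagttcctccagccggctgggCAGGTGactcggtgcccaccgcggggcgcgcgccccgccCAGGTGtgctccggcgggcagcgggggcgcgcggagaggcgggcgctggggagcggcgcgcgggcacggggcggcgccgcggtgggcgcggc
Kazn, chr4:142215459-142215708 (-): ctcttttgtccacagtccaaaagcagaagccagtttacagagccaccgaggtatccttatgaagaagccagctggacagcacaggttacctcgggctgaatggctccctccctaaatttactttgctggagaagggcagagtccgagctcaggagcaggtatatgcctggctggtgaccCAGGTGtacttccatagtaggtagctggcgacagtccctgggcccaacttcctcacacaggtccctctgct
Scnn1g, chr7:121734229-121734478 (+): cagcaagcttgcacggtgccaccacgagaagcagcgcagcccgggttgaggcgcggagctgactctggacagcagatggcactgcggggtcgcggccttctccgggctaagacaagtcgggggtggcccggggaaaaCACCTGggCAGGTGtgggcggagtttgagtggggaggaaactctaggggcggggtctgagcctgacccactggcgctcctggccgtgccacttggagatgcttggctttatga
The matches number 2 in Pard6b, 3 in Cobl, 1 in Kazn and 2 in Scnn1g, and the first of the Scnn1g pair reads on the other strand. The Kazn window precedes an annotated start that lies inside the span of the gene given above. The other Kazn window, at the outer start of that span, holds no E-box match, and neither does the other Cobl window. A match is a run of letters and not a measured binding site. The 3 motifs were picked after values were seen, and the difference in shares was not tested. The part of ZEB and SNAI repressors in the low Non-NE values was not tested either.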

How the data were processed

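Poly(A) RNA of 14 libraries was sequenced. STAR 2.4.2 (build mm10) and featureCounts made the gene counts, per the submitters' processing notes. For featureCounts, the version, annotation and strand setting were not given in the sources used here. Raw whole-number counts for 32926 symbols were deposited by the authors, and library totals ran from 6730816 to 10659524. CPM were computed from the column totals. Counts were scaled by TMM, filtered with filterByExpr and tested by edgeR 4.0.16 (R 4.3.3) with its robust quasi-likelihood test. Calls were made at a Benjamini-Hochberg adjusted p under 0.05 over all genes of the fit. The 8 YAP5SA libraries (13996 genes) and NE replicates 1 and 3 with the 3 Non-NE libraries (13458 genes) were fitted apart. A group at 0 allows 3 counts over the group, which covers counting error only. Alternatives were DESeq2 1.42.0, limma-voom (limma 3.58.1), other scalings and filters, all 14 libraries, the replicate block, left-out libraries and other settings of the member rule.

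The 97 genes and the 15 lists were chosen with earlier results of these data known. The symbols were left out after the 100 genes were taken. Applied before, Stim1, Myc and Myh14 would join. Genes were named by a rule: the 12 with the largest smaller value of A and B, the 8 highest at day 21, the 5 largest rises and up to 5 falls between days 3 and 7, members of a list, and genes at the limit. Other genes named, Cobl among them, and the Zeb and Snai genes were picked after their values were seen, as were the 11 roles, the 452 comparison genes, the 3 motifs, the counts called in both fits, the day 3 counts and the 4 printed promoters. Symbols were matched to RefSeq (GRCm38.p6), 89 directly and 8 by synonym. Paralogs and overlapping genes may share reads. A single gene is counted among the 97 but not reported here by itself.

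The tests were run on simulated data. For day 7 against day 3, 99 of 100 simulated 2-fold changes and 100 of 100 simulated 4-fold changes were found, and 15 of 13582 genes had a false call. For Non-NE against NE, 0 of 100 simulated 2-fold and 13 of 100 simulated 4-fold changes were found, with a false call in 2 of 13143 genes. Another simulation for Non-NE against NE, with larger changes chosen because few had been found, returned 48 of 100 at 4-fold and 95 of 100 at 32-fold, with a false call in 15 of 13161 genes.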

Additional observations from a re-analysis of the deposited data

How the results depend on the processing

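With all 14 libraries in a fit, 1281 genes were called between days 7 and 3 (7785 in the 8 libraries), with 21 of the 97 higher and 0 lower. At day 3 against day 0 that fit called 792 genes higher (3673) and 29 of the 97 (77), at day 21 against day 0 it called 4586 genes (10032), and between Non-NE and NE 8997 (4620). That fit also takes NE replicate 2 in, which by itself gave 5554 genes between Non-NE and NE and 465 called in both. Leaving out a library gave 81 to 85 of the 97 higher at day 7 than day 3 and 1 to 3 lower, among 6184 to 8288 genes called, with 1 lower without day 7 replicate 2. It gave 72 to 79 of the 97 and 2920 to 3944 genes higher at day 3, 9112 to 10291 genes at day 21, 2068 to 4632 between Non-NE and NE (2544 without NE replicate 1, 2068 without NE replicate 3), and 151 to 402 called in both (378 with all, 197 without NE replicate 1, 151 without NE replicate 3). The cause was not tested. A fit with 1 library left in a group assumes that it varies like the others. The replicate numbers did not mark shared deviations (correlations -0.09 to 0.03 over 6 pairs of days). With them as a replicate block the counts were 84 and 2 of the 97 among 7703 genes for day 7 against day 3, 9942 genes at day 21, 3652 between Non-NE and NE and 310 in both.

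Scaling by library totals alone moved the median of all genes to -0.12 for day 7 against day 3 and for day 21 against day 0, and to -0.26 for Non-NE against NE. It gave 3140 genes higher and 5076 lower at day 7 (4128 and 3657 with TMM), and 1615 and 3095 in Non-NE (2168 and 2452), with 83 and 2 of the 97 at day 7. The choice of genes kept 91 of the 97 with a pseudocount of 1, 84 with TMM-scaled CPM or all 3 NE libraries, 66 with an NE minimum of 1 CPM, 64 with 10 CPM, and 82 to 94 without a library.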
